A study of Arabidopsis thaliana with 12 samples.

Results

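A set of 41 well-expressed genes had nearly the same mean intensity in Arabidopsis thaliana plants kept in water and in plants given staurosporine and then ascorbate. The genes were chosen by 4 conditions on the deposited intensities: a row with exactly 1 gene in the platform annotation, no 0 on any array, a mean over the 12 arrays of at least 0.7, and a ratio of the treated mean to the water mean between 0.87 and 1.15. Of 3439 rows, 692 had a single gene. Of these, 212 met the conditions on level, 41 of them inside the ratio window, 112 below it and 59 above it. The ratio and the level therefore chose the genes, and both are given here as a description. A fit of the same contrast is printed below, and nothing is read from its calls of the 41 genes. The 6 water samples came from wild-type plants of the Columbia 0 ecotype treated for 8 h with water. The 6 treated samples came from the same ecotype, given 2 µM staurosporine for 4 h and 25 mM ascorbate at pH 5.5 for another 4 h. No group received only 1 of the compounds. Neither a tissue nor the origin of the replicates appears in the labels, so every p-value refers to scatter among these 12 samples, some or all of which may be technical.

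Staurosporine blocks a wide range of protein kinases, enzymes that pass on signals by phosphorylation. Ascorbate takes up reactive oxygen in the watery compartments of plant cells and is a central part of their redox balance. Genes with steady transcript levels serve as internal standards in RNA measurements, where a target is read against a gene taken to be constant. Such standards in plants are often drawn from basic cell functions, including membrane traffic, translation, the cytoskeleton and protein turnover. A steady mean does not by itself make a standard, because the level must also be alike from sample to sample within a condition.

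The 12 arrays had mean intensities between 0.857 and 1.04, and the number of arrays limits the precision. The median log2 difference over all rows was -0.08 as deposited and 0.00 after quantile normalization, the scale of all fits here. Within each group, arrays with adjacent replicate numbers resembled each other, so numbers 1 and 2 are called set 1, numbers 3 and 4 set 2, and numbers 5 and 6 set 3. The labels do not describe such sets, and an RNA sample common to both arrays of a set cannot be told apart from common handling. Of 18 leaf photosynthesis markers, 1 had a row of its own, LHB1B2, at 2.18 ± 0.619 in water and 1.29 ± 0.0867 after treatment (mean ± SD, n = 6 each). Of 10 root markers, 0 had one, so these lists allowed no further check of the tissue. Photosynthesis genes outside the lists, among them PSBW, PSAN and PSB27, also had rows of their own.

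The 41 ratios of deposited means ran from 0.881 to 1.10, with 15 above 1 and 26 below it. This lean below 1 did not hold on the normalized log2 scale, where the median difference was 0.05. LAS, with a ratio of 0.928, had a normalized log2 difference of 0.02, and DI21, with 0.953, one of 0.19. The gene nearest the lower end was TCP15, with a ratio of 0.881, followed by AT4G31530 at 0.894. PSB27, a photosystem II assembly factor, lay just outside at 0.867, as did AT1G07970 at 0.864. At the upper end AT3G56290 (1.10) and AT2G19870 (1.10) were inside, and AT1G16080 (1.15) and AT3G16760 (1.15) were just above the limit. By intensity, AT4G00870 (0.712) and AT3G56290 (0.745) were the lowest included, and AT5G22340 (0.694) and AT4G40080 (0.682) the highest left out. Water and treated arrays overlapped in 41 of 41 genes, in 65.5% of the 171 rows outside the window and in 80.7% of all rows, a count that the window nearly fixes.

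**Figure D1:**
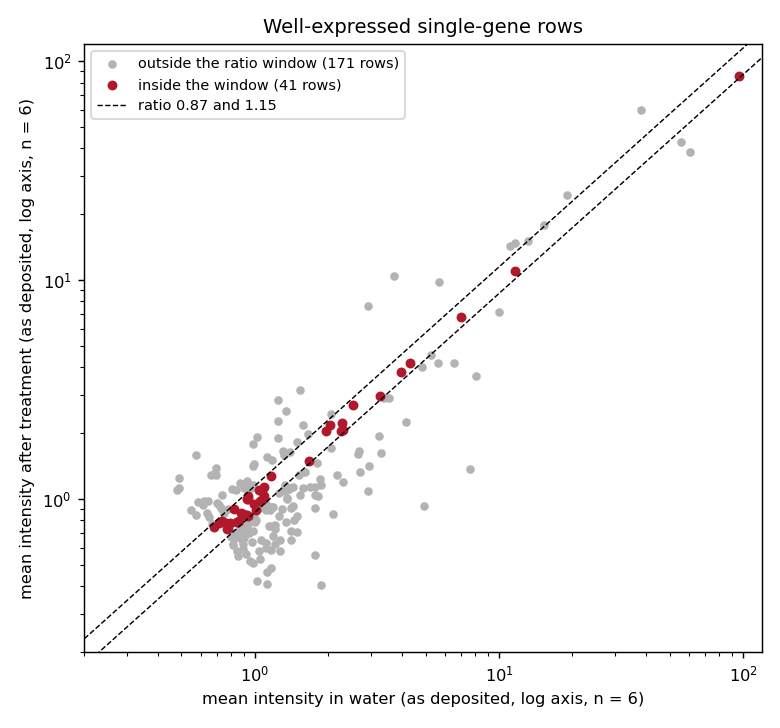
Mean deposited intensity in water (x axis) against that after treatment (y axis), both on log axes, n = 6 arrays each. Each point is 1 of 212 well-expressed single-gene rows, with 41 rows inside the ratio window in red, between the dashed lines for 0.87 and 1.15, and 171 rows outside it in grey.

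A limma fit of treated against water across the whole table called 32.9% of 3439 rows at an adjusted p under 0.05. It called 1 of the 41 genes, AT2G47830, a member of the cation efflux family of metal transporters. That gene had intensities of 0.766, 0.805 and 0.926 in water (lowest, median, highest) and 0.755, 0.937 and 0.992 after treatment. Its log2 difference was 0.25 ± 0.0610 (SE). The limma adjusted p was 0.00874, ranging from 0.00576 to 0.293 over the alternatives, where the highest value came from the intensities as deposited. It was 0.112 with each array divided by its median and 0.117 on means of sets. Nothing is read from these calls, since the same contrast chose the genes.

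How closely each mean was pinned down differed between genes. The 95% intervals of the normalized log2 difference included 0 for 40 of 41 genes, yet they lay wholly inside the window for only 2. These were LAS (-0.14 to 0.18) and AT4G31530 (-0.15 to 0.08), whose interval rests on values tied at the top of the table and does not show a well-measured mean. The standard error ranged from 0.0542 to 0.333 with a median of 0.149, so for most of the 41 genes a change past the window could not be told from none. These intervals are on the normalized scale, while the window was set on deposited means. They treat the 6 arrays of a group as independent.

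**Figure D2:**
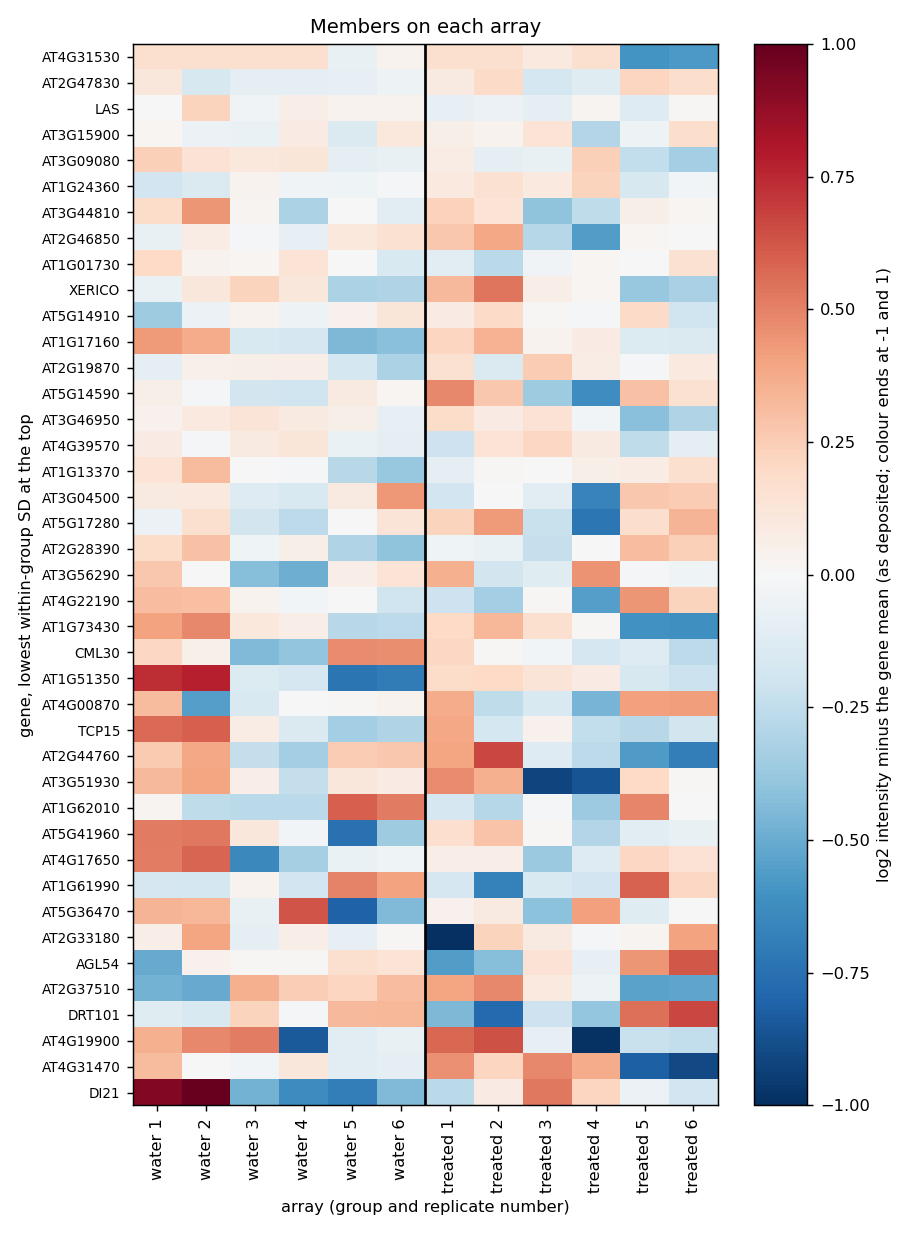
Log2 intensity as deposited on each of 12 arrays (x axis) for 41 genes (y axis), less the mean of the gene, ordered by within-group SD with the steadiest at the top. Blue is below and red above the gene's own mean, and neighbouring arrays of a group often share a colour, as for DI21 at the bottom.

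Of the 41 genes, 7 had a symbol of their own in the gene table, and the roles given for the others are general knowledge of these loci. A role is given for 29, and the other 12 are named without one. No share by role is given for the well-expressed rows outside the window. The counts by role therefore do not show which functions are steady more often than others. Transcription factors made up 4 of the 41. LAS, a regulator of the GRAS family needed to start side shoots, was the most even of them, with 0.856, 0.89998 and 1.02 in water (lowest, median, highest) and 0.805, 0.836 and 0.893 after treatment. Its arrays lay close together in both groups, and its mean was 0.912 ± 0.0591 in water and 0.846 ± 0.0358 after treatment. As deposited, LAS was lower after treatment at each replicate number, with ratios from 0.821 to 0.987, while its normalized log2 difference was 0.02. TCP15, a regulator of growth and cell division, had 0.730, 0.906 and 1.40 in water and 0.762, 0.815 and 1.21 after treatment. Its 3 highest values were water replicates 1 and 2 and treated replicate 1. AGL54, a MADS-box protein, ran from 0.662 to 1.05 in water and from 0.639 to 1.45 after treatment. AT4G00870, a basic helix-loop-helix protein, ran from 0.475 to 0.865 and from 0.505 to 0.927.

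The mTERF proteins act on gene expression in mitochondria and plastids, and 3 of them were among the 41. AT1G61990 had 0.698, 0.760 and 1.12 in water (lowest, median, highest) and 0.498, 0.712 and 1.20 after treatment. AT1G62010, its close neighbour in the genome, had 0.715, 0.799 and 1.30 in water and 0.668, 0.809 and 1.21 after treatment. As deposited, replicates 5 and 6 were the highest arrays in both genes and both groups. For AT1G62010 after treatment, replicate 6 (0.857) was barely above replicate 3 (0.853). On the normalized log2 scale it was below, at -0.24 against -0.01. Members of this family have related sequences, and whether their rows measure separate transcripts was not tested. AT3G46950 had 0.951, 1.06 and 1.10 in water and 0.755, 1.03 and 1.15 after treatment, where its lowest arrays were replicates 5 and 6.

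RNA binding, RNA modification and chromatin were represented by 4 genes. AT1G13370, a histone H3 gene, had 1.52, 1.97 and 2.47 in water and 1.87, 2.04 and 2.22 after treatment. AT2G19870, of the family of SpoU RNA methyltransferases, had 0.787, 0.970 and 1.03 in water and 0.886, 1.04 and 1.17 after treatment. AT3G04500, an RNA-binding protein, ran from 0.732 to 1.10 in water and from 0.513 to 0.983 after treatment. AT2G37510, another RNA-binding protein, was at 1.57 and 1.53 on water replicates 1 and 2, and between 2.52 and 2.77 on the other water arrays. After treatment it was at 2.85 and 3.02 on replicates 1 and 2, at 2.33 and 2.10 on 3 and 4, and at 1.49 and 1.51 on 5 and 6. Its group means of 2.27 ± 0.569 and 2.22 ± 0.647 were thus nearly equal, while set 1 was lowest in water and highest after treatment.

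Membrane traffic gave 2 genes. AT2G28390, also called MON1, is needed for transport to the vacuole and is widely used as a reference gene in Arabidopsis. It was the only 1 of 30 listed reference genes with a row of its own. In water it stood at 1.25 and 1.35 on replicates 1 and 2, at 1.07 and 1.15 on 3 and 4, and at 0.895 and 0.833 on 5 and 6. After treatment it stood at 1.07 and 1.05, then at 0.939 and 1.10, then at 1.37 and 1.30. The means were 1.09 ± 0.2002 and 1.14 ± 0.162, a ratio of 1.04, with replicates 5 and 6 lowest in water and highest after treatment. AT1G73430, a subunit of the Golgi tethering complex COG, had 1.75, 2.25 and 2.96 in water and 1.38, 2.25 and 2.66 after treatment. As deposited, it was highest on replicates 1 and 2 and lowest on 5 and 6 in both groups. On the normalized log2 scale its highest treated array was replicate 3, at 1.32.

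Signalling and stress genes numbered 4, and 3 of them had uneven arrays. DI21, a drought-induced gene, was at 1.33 and 1.42 on water replicates 1 and 2 but between 0.434 and 0.517 on the other water arrays. After treatment it lay between 0.582 and 1.01, with 0.582 and 0.744 on replicates 1 and 2. AT4G31470, of the secreted protein family of PR-1, lay between 0.684 and 0.919 in water and between 0.859 and 1.03 on treated replicates 1 to 4, but at 0.420 and 0.396 on treated replicates 5 and 6. CML30, a calmodulin-like calcium sensor, had 1.14, 1.70 and 2.15 in water and 1.29, 1.47 and 1.79 after treatment. Its highest water arrays were replicates 5 and 6, where the treated arrays were at 1.41 and 1.29. XERICO, a RING-type protein that raises abscisic acid levels, had 2.05, 2.61 and 2.99 in water and 1.97, 2.64 and 3.70 after treatment.

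**Figure D3:**
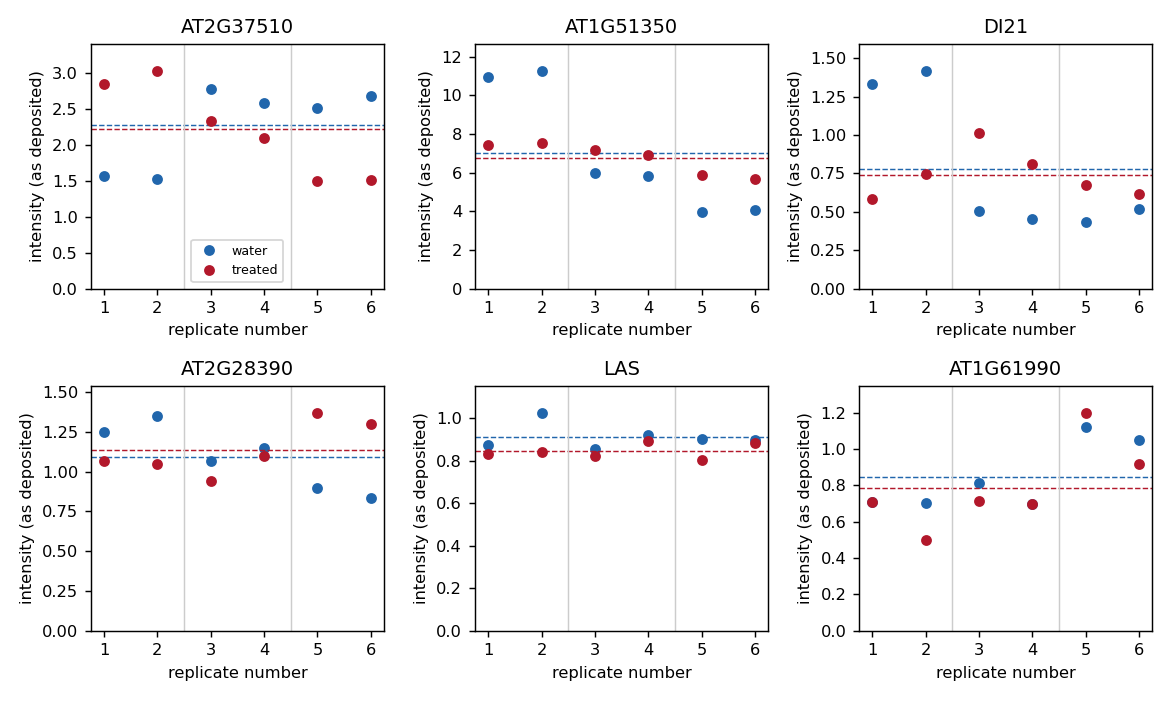
Deposited intensity (y axis, from 0) by replicate number (x axis) for 6 genes, with water in blue and treated in red and dashed lines at the group means. For AT2G37510, AT1G51350, DI21 and AT2G28390 the means nearly coincide while the groups part in opposite directions in different sets. Means this close require a gap in any set to be offset in another. LAS stays between 0.805 and 1.02 throughout.

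Metabolic enzymes and related proteins were the largest group with a role, at 7 genes. AT1G24360, a reductase of plastid fatty acid synthesis, had 1.07, 1.19 and 1.25 in water (lowest, median, highest) and 1.09, 1.31 and 1.42 after treatment. AT1G17160, a ribokinase, had 1.51, 1.85 and 2.77 in water and 1.87, 2.15 and 2.63 after treatment. AT5G14590, an isocitrate dehydrogenase that uses NADP, lay between 0.654 and 0.801 in water and between 0.489 and 1.05 after treatment. DRT101, a phosphosugar mutase, lay between 0.901 and 1.26 in water and between 0.586 and 1.59 after treatment. AT4G17650, a protein related to the coenzyme Q binding factor COQ10, had 2.42, 3.64 and 5.67 in water and 2.92, 3.96 and 4.37 after treatment. AT4G19900, a glycosyltransferase, had a mean of 11.6 ± 3.61 in water and 11.0 ± 4.37 after treatment, with replicate 4 lowest in both groups at 5.97 and 5.38.

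AT4G31530, a protein with an NAD-binding fold, had the highest mean intensity of the 41 at 91.0, and its values met the top of the table. On 7 of 12 arrays it stood at the highest value in the table, which is just under 100. Whether that value marks a limit of the scan or a step of scaling is not stated, so its level there may be only a lower bound. Below that value it was at 96.1 on treated replicate 3, at 85.3 and 91.6 on water replicates 5 and 6, and at 59.3 and 60.3 on treated replicates 5 and 6. In set 3, where no array was at the top, the ratio of treated to water was 0.676, outside the window. Its ratio of 0.894 over all arrays therefore rests on values at that top, and its small spread after quantile normalization, 0.0853, goes with a rank of 1 or 2 from the top on each of the 12 arrays.

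Genes of repeat-domain proteins, which mostly serve as binding platforms, numbered 4. AT1G51350, an armadillo-repeat protein, was at 11.0 and 11.3 on water replicates 1 and 2, at 5.96 and 5.85 on 3 and 4, and at 3.95 and 4.05 on 5 and 6. The treated arrays were closer together, from 5.66 to 7.52. AT3G09080, a WD40-repeat protein, lay between 2.89 and 3.64 in water and between 2.44 and 3.64 after treatment. AT3G51930, another WD40-repeat protein, lay between 0.725 and 1.13 in water, and after treatment it was at 0.452 and 0.471 on replicates 3 and 4 and between 0.864 and 1.19 on the others. AT4G39570, an F-box protein with kelch repeats, stayed between 0.811 and 0.944 in water and between 0.726 and 1.001 after treatment.

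The 12 genes without a role here were AT3G56290, AT3G44810, AT2G46850, AT4G22190, AT2G33180, AT5G41960, AT5G17280, AT1G01730, AT5G14910, AT3G15900, AT2G44760 and AT5G36470. Their means ran from 0.745 to 4.25 and their within-group SDs on the normalized log2 scale from 0.148 to 0.403. AT3G15900 was the most even of these, with 0.969, 1.06 and 1.15 in water (lowest, median, highest) and 0.877, 1.108 and 1.21 after treatment. AT5G36470 was brighter and less even, with 2.35, 4.54 and 6.35 in water and 3.10, 4.17 and 5.46 after treatment. In AT2G44760, treated replicates 5 and 6 were at 1.39 and 1.28, below the water arrays of those numbers at 2.47 and 2.49.

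Within groups, the SD of normalized log2 intensity ranged from 0.0853 to 0.598 over the 41 genes, with a median of 0.265. It was under 0.2 for 12 genes and above 0.4 for 7. The lowest after AT4G31530 were AT2G47830 (0.0991), LAS (0.119), AT3G15900 (0.148) and AT3G09080 (0.159). The highest were DI21 (0.598), AT4G31470 (0.583), AT4G19900 (0.499), DRT101 (0.477) and AT2G37510 (0.424). The 171 well-expressed rows outside the window had a median of 0.292, and all 3439 rows one of 0.361. A narrow ratio window favours rows with little spread, so the lower median is not a result of its own.

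The SD was larger after treatment in 24 of the 41 genes (58.5%) and in 69.1% of all rows. In AT4G31470 it was 0.179 in water and 0.804 after treatment, and in CML30 0.396 and 0.101. A limma test of the absolute deviations from the group means asked whether such differences in spread exceeded the scatter between arrays. It called 0 of the 41 genes, against 2.59% of all rows at an adjusted p under 0.05. AT4G31470 came nearest with a limma adjusted p of 0.0527, and it passed on the intensities as deposited (0.0497), as did AT4G31530 (0.0443). Over 19 alternatives its adjusted p in limma ran from 0.00392 to 0.526, and it also passed without any one of treated replicates 1 to 4. AT3G51930 and AT5G14590 passed without treated replicate 1, 2 or 6, and AT1G51350 without water replicate 3 or 5. At an unadjusted p under 0.05 there were 10 genes, or 24.4%, against 27.9% of all rows. This test recovers few differences in spread with 6 arrays a group, so the count of 0 does not show equal spread. It also takes the 6 arrays of a group as independent, although adjacent arrays were alike, so its p-values are a description. On means of sets, which leave fewer values, it called 0 of 3439 rows.

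**Figure D4:**
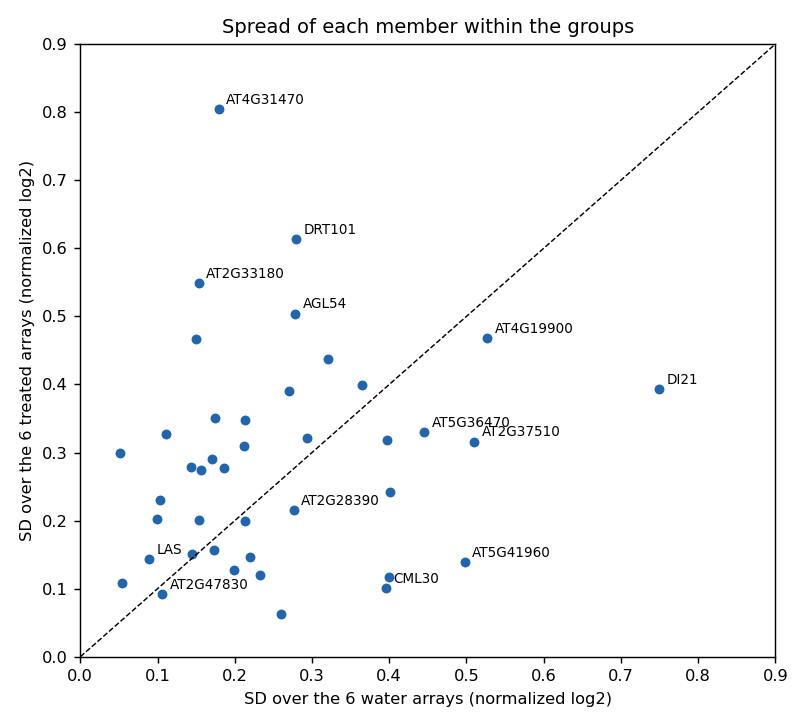
SD of normalized log2 intensity over the 6 water arrays (x axis) against that over the 6 treated arrays (y axis), 1 point for each of 41 genes, with equality dashed. AT4G31470 lies far above the line at 0.804 after treatment, and DI21 (0.750 in water) and AT5G41960 (0.498 in water) far below it.

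Whether arrays of the same number moved together in both groups was tested with the replicate number in the limma fit, a term the ratio did not use. It called 0 of 41 genes, against 3.14% of all rows at an adjusted p under 0.05, and 8 genes (19.5%) against 20.6% at an unadjusted p under 0.05. The nearest were AT4G19900 (limma adjusted p 0.0708) and AT1G61990 (0.0716), and on the intensities as deposited AT4G19900 (0.0463) and AT1G73430 (0.0328) passed. AT4G19900 also passed without replicate 3 of either group (0.0331 to 0.236 over 17 alternatives) and AT1G61990 without water replicate 2 (0.0447 to 0.189). With the 3 sets in place of the 6 numbers, 10 genes (24.4%) were called for level between sets across both groups. The share was 14.6% of all rows and 19.3% of the well-expressed rows outside the window. The 10 genes were AT1G73430 (limma adjusted p 0.00429), AT1G61990, DRT101, AT4G39570, AGL54, AT4G17650, AT3G46950, AT1G62010, AT2G19870 and AT1G24360 (0.0451). The sets were recognised from these same arrays, and the fit takes the like arrays of a set as independent. These calls are therefore a description. AT1G73430 had set means as deposited of 2.88, 2.25 and 1.76 in water and 2.55, 2.25 and 1.39 after treatment. On that scale set 1 was highest and set 3 lowest in both groups. DRT101 was lowest in set 1 and highest in set 3, with 0.912, 1.08 and 1.26 in water and 0.660, 0.819 and 1.53 after treatment.

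Of the scatter of the 41 genes within groups, measured as the sum of squared deviations, a median of 84.8% lay between sets, and over 90% in 16 genes. The median was 86.0% for the 171 well-expressed rows outside the window and 68.5% for all rows, so the share was close to that of rows of like intensity. Independent arrays would give 40%. The sets were recognised from this likeness over the whole table, so the share is a description. Arrays of 1 set differed by a median SD of 0.116, against 0.265 for all arrays of a group.

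The difference of treated from water arrays was not alike across sets. As deposited, 4 of 41 genes had a ratio between 0.87 and 1.15 in each of the 3 sets, namely LAS, AT3G15900, AT3G44810 and AT4G39570. A further 17 genes did so in 2 sets, 13 in 1 set and 7 in 0. DI21 had normalized log2 differences of -0.95, 1.01 and 0.53 in sets 1, 2 and 3. On that scale AT2G37510 had 0.83, -0.22 and -0.84, and AT1G51350 had -0.54, 0.20 and 0.56. In 6 genes (14.6%) the 3 normalized differences spanned more than 1 on the log2 scale, which is 2-fold. The share was 22.8% of the 171 rows outside the window and 33.0% of all rows. The median span was 0.575 for the 41 genes, 0.652 outside the window and 0.713 over all rows.

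**Figure D5:**
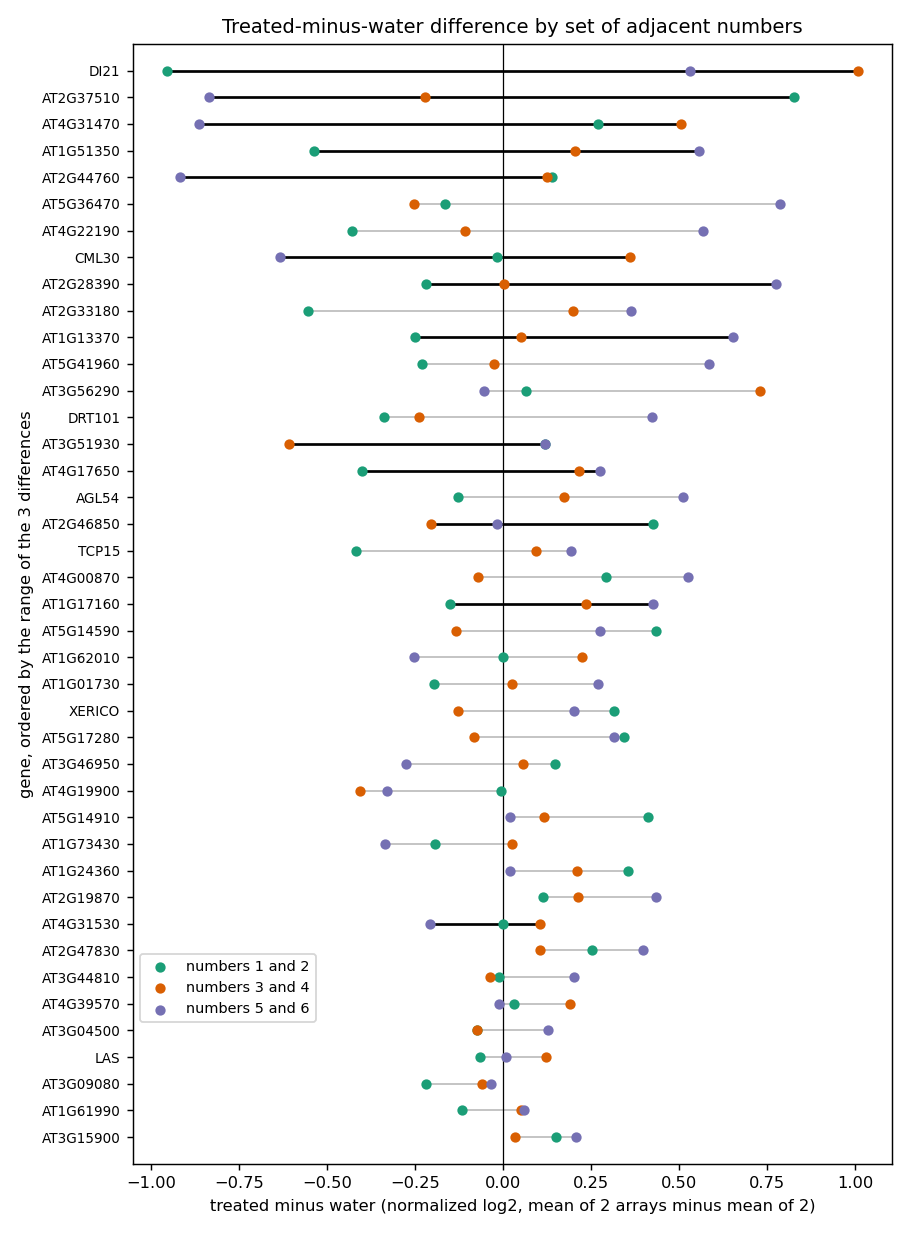
Normalized log2 difference of treated from water arrays (x axis) in each set of adjacent replicate numbers for 41 genes (y axis), each point a mean of 2 arrays less a mean of 2. Black lines join the points of the 13 genes whose differences passed the limma test among sets and grey lines those of the others, and the widest span belongs to DI21, from -0.95 to 1.01.

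A limma interaction of group and set, chosen after the data had been seen, tested this. The mean ratio does not fix how far the sets differ among themselves. It does require a large difference in any set to be offset in another, so opposite directions are not a result. It called 13 of the 41 genes (31.7%), against 15.8% of all rows at an adjusted p under 0.05 and 33.9% of the 171 well-expressed rows outside the window. The share was thus close to that of other rows of like intensity. AT4G31530 was among the 13 with a within-set SD of 0, because its normalized values follow only ranks and ties at the top of each array. Without AT4G31530, 12 genes remained. The test takes its error from arrays of the same set, so it compares these sets and does not show a response that differs between independent plants. Since the sets were recognised from the likeness of their arrays, that error tends to be small, and these calls are a description.

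Of the 13 genes, 7 passed under each of 17 alternative settings, namely AT2G37510, AT1G51350, DI21, AT4G31470, AT2G28390, CML30 and AT2G44760. The settings all used the same sets, so passing each of them is not separate support. AT2G37510 had the smallest limma adjusted p, 0.000571, with 0.000327 to 0.00387 over the alternatives. AT2G28390, the reference gene, had a limma adjusted p of 0.00619 (0.00304 to 0.0331), with log2 differences of -0.22, 0.00 and 0.77 in the sets. AT4G31470 had differences of 0.27, 0.51 and -0.86, CML30 of -0.02, 0.36 and -0.63, and AT2G44760 of 0.14, 0.13 and -0.92. AT1G17160 and AT1G13370 missed the threshold with each array divided by its median (limma adjusted p 0.0878 and 0.0505). AT3G51930, AT4G17650 and AT2G46850 lost their calls without any of water replicates 1, 2, 3, 5 and 6 or treated replicates 1 and 2, and without some of the other arrays, with adjusted p in limma up to 0.0942, 0.146 and 0.125. AT4G31530 lost its call without water replicate 5 or 6. With the lowest 25% of rows left out, AT4G31530 (limma adjusted p 0.141), AT4G17650 (0.0512) and AT2G46850 (0.0544) lost theirs. With 1 array left out, between 9 and 14 of the 41 genes passed. The count over all rows fell from 542 to 267 and 275 without water replicate 5 and 6, and rose to 818 without treated replicate 4.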

How the data were processed

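RNA from 6 water and 6 treated samples was measured on expression arrays, and groups and replicate numbers come from the sample titles. The deposited values are linear intensities, 1 for each row and array. The steps by which the authors made them (scanning, background, scaling) are not given in the sources used here. No value is negative, 10.3% to 15.2% of an array are exactly 0, and the scale ends just under 100. The signal over background is unknown.

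The 41 genes and all lists were chosen with earlier results of these data known. Rows were named through the platform annotation and the gene table of the TAIR10.1 assembly, and 41 of 41 genes matched a distinct locus. The gene table holds few functional terms, so keyword classes left 39 of the 41 unclassified, and roles were assigned from general knowledge. No coordinates are given because the build behind the annotation is not stated.

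A 0 was replaced by 0.0157 (1st percentile of positive values), log2 was taken, and arrays were quantile-normalized because their medians ranged over 0.47 (limit 0.1). limma 3.58.1 in R 4.3.3 gave 4 tests over 3439 rows with Benjamini-Hochberg adjustment and a threshold of 0.05: group difference, absolute deviations from the group mean (two-sided, scaled for group size), replicate number beside group, and group by set. Each test was run on simulated data, where the test of spread recovered few rows even for large differences and made more false calls than its threshold allows, so its calls are weak evidence either way. Python 3.11.15 with matplotlib 3.10.9 drew the figures.

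The genes given with single-array values were to be the 5 with the highest mean intensity, the 5 with the smallest and the 5 with the largest within-group SD, those called in the tests of spread and number, and the 2 rows nearest each limit of the conditions. Others are named by role with their ranges. The values by set were added after the data were seen. Deviations from the group means correlated at 0.302 to 0.425 between water and treated arrays of the same number, each over 0.1. For the chosen genes alone these correlations ran from 0.122 to 0.496. The check held no arrays of different number, so pairing by number cannot be told apart from a likeness of whole sets. The numbers were used as pairs only in the replicate block and the test of replicate number. The main fit of the group difference, with its standard errors and intervals, was unpaired. The labels do not say what a number marks. Alternatives were the intensities as deposited, each array divided by its median, the 10th percentile as floor, the 5th percentile (0.0835) as pseudocount, the lowest 25% of rows left out, a replicate block, a variance trend, deviations from the median, sets in place of numbers, each array left out, and other limits for the choice of genes. Added later were means of sets and the removal of the row at the top of the scale.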

Additional observations from a re-analysis of the deposited data

Results flagged for a closer look

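In 82 groups of 6 arrays, 6 groups had 1 array standing well apart from the rest on the normalized log2 scale. About 5% of groups do so by chance when the values are independent and normally distributed. Adjacent arrays resembled each other here, so that rate need not hold. AT4G19900 was low on replicate 4 in both groups. In water this array was at 2.55 against 3.58 to 3.95 elsewhere, and after treatment at 2.44 against 3.25 to 3.70. AT2G33180 was at -1.32 (intensity 0.398) on treated replicate 1, against -0.18 to 0.19. AT3G04500 was at 0.066 on water replicate 6, against -0.39 to -0.30. AGL54 was at -0.73 on water replicate 1, against -0.21 to 0.00. AT4G00870 was at -1.20 on water replicate 2, against -0.62 to -0.35.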

How the results depend on the processing

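Between 39 and 52 genes met the conditions when 1 array was left out, 33 to 40 of them among the 41. With quantile-normalized values 54 met them (33 of the 41), with each array divided by its median 57 (34), with group medians 43 (29) and with a narrower ratio window from 0.9 upwards 36. A mean of at least 1 left 20. The replicate block, with 1252 rows called for the group difference and the same 1 of the 41 genes, changed no other call among the 41. Means of sets gave 418 rows and 0 of the 41 genes, and 0 of the 41 also passed as deposited and with division by the median. The group difference called 1010 to 1157 rows and 1 to 3 of the 41 genes with 1 array left out. The 3, without treated replicate 4, were AT2G47830, AT5G14590 and AT5G17280. Nothing is read from group calls of the 41 genes, since the same contrast chose them. The test of spread called 89 rows, and 140 when the 10th percentile was the floor, 51 without the lowest 25% of rows, 10 with deviations from the median, 0 on means of sets, and 33 to 247 with 1 array left out. Of the 41 genes it then called 2 as deposited, 1 with that floor, 1 without the lowest 25%, and 0 to 3 with 1 array left out. The replicate number called 108 rows, and 224 as deposited (2 of the 41), 169 with the pseudocount, 502 with sets (10 of the 41), and 42 to 146 with 1 array left out (0 to 1). The difference among sets called 542 rows, and 267 to 818 with 1 array left out (9 to 14 of the 41). The causes of these shifts were not tested. Signal over background is unknown, so what it limits could not be given.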
